A study of Columba livia with 19 samples.

Results

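A set of 53 transcripts stood higher in the growing feathers of recessive red pigeons than in those of wild-type pigeons in each of 2 batches of birds. They were picked from the 15392 genes of the count table by size of difference alone. Counts were divided by the total of each bird and multiplied by 1000000 (CPM), the mean CPM of recessive red birds was divided by that of wild-type birds after adding 0.5 to each, and the log2 of this ratio had to reach 0.75 in both batches, with a mean of at least 2 CPM in recessive red of each batch. A further 213 genes met these limits in the second batch and had a log2 ratio under 0.75 in the first. Another 103 met them in the first and had a log2 ratio under 0.75 in the second. Because the phenotype difference chose the members, it is described here and not tested.

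Recessive red is a plumage trait of the domestic rock pigeon (Columba livia) in which feathers carry red to yellow pheomelanin in place of black to brown eumelanin. The trait is caused by the e1 and e2 alleles, deletions upstream of SOX10, which encodes a transcription factor needed by the neural crest cells that become melanocytes. SOX10 works with MITF to switch on the enzymes of eumelanin synthesis, so loss of its activity is best known for transcripts that fall, and the transcripts that rise are the less familiar side of the trait. The collar is the ring of epidermis at the base of a growing feather, in which keratinocytes and melanocytes lie side by side.

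The birds carried the following genotypes. Batch 1, of the year 2017, held 3 e1 homozygotes with recessive red plumage (birds 1, 3 and 4) and 4 wild-type birds (1, 2, 3 and 4). Batch 2, of the year 2020, held 3 e1 homozygotes (6, 11 and 12), 3 e2 homozygotes (5, 7 and 14) and 5 wild-type birds (00, 20, 21, 23 and 24). It also held bird 22, a carrier with 1 wild-type and 1 e1 allele and a wild-type phenotype. In all of them secondary flight feathers regrew for 9 to 10 days after plucking, and polyadenylated RNA came from the collar of the lowest 4 to 5 mm, with the pulp taken away. Each bird gave 1 library, several feathers of 1 wing were plucked per bird, sex and age are not in the labels, and year, birds and batch cannot be told apart. Total counts ranged from 13559606 to 23168538 per bird. The table gives gene identifiers without names or positions, and 0 of the 15392 identifiers matched the 22830 genes of the reference table used here, so members are given by identifier, no function is assigned to them, and neither SOX10 nor the marker genes of melanocytes, epidermis, pulp or blood were checked here. In whole collars a higher count can come from more cells of a type or from more RNA per cell, and these cannot be told apart.

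**Figure D1:**
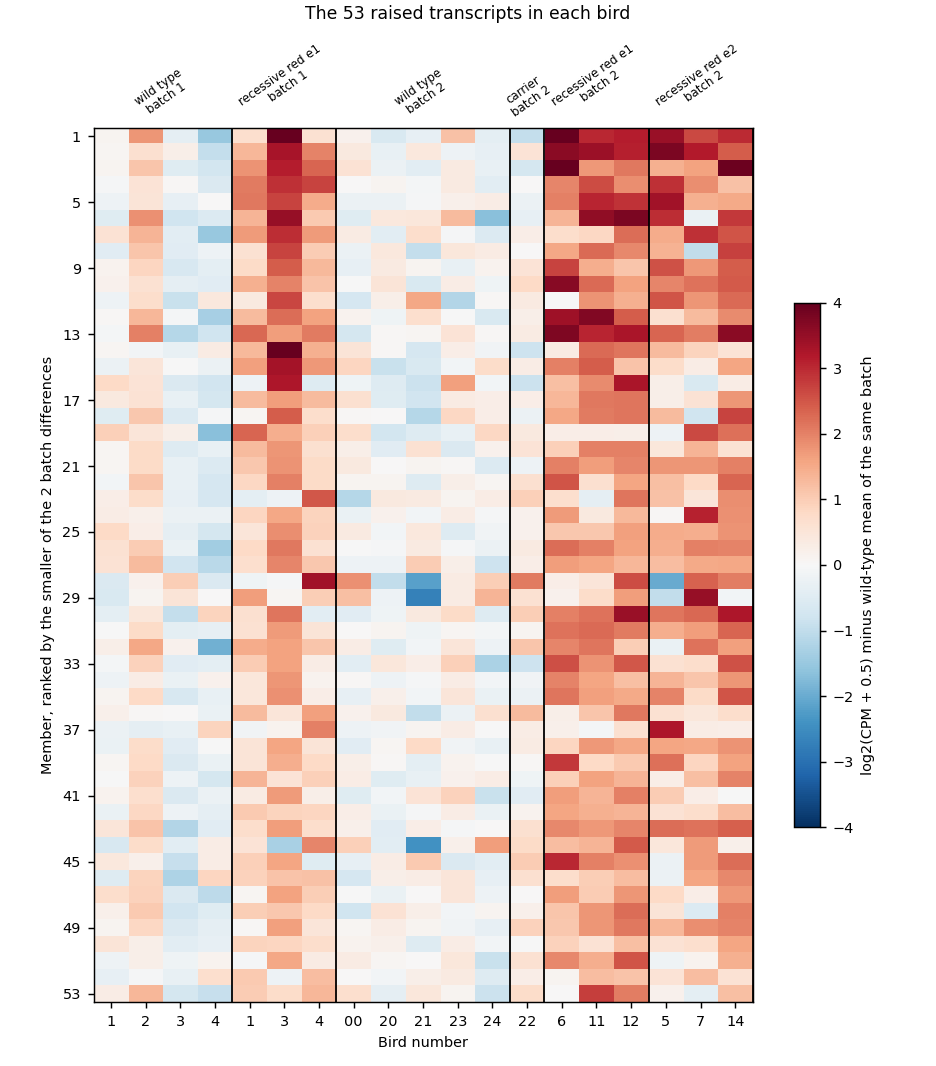
Each row is 1 of the 53 members, ranked from the top by the smaller of its 2 batch differences, and each column is 1 bird. Colour gives log2(CPM + 0.5) minus the mean of the homozygous wild-type birds of the same batch, red for higher and blue for lower. Red fills the recessive red columns of both batches, within batch 1 most strongly in bird 3, and wild-type bird 2 is the reddest of the wild-type columns.

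Together the members took a small share of each library. In batch 1 they held 0.104 ± 0.0536% of the counts in wild type (SD, n = 4) and 0.250 ± 0.134% in recessive red (SD, n = 3). In batch 2 they held 0.0871 ± 0.00750% in homozygous wild type (SD, n = 5), 0.314 ± 0.0268% in e1 (SD, n = 3) and 0.281 ± 0.0640% in e2 (SD, n = 3). In batch 2 every recessive red bird had a larger share than every wild-type bird, with 0.236% as the lowest recessive red and 0.0976% as the highest wild-type value. In batch 1 the groups overlapped, because wild-type bird 2 stood at 0.180% and recessive red birds 1 and 4 at 0.177% and 0.168%. These shares were chosen to differ between the phenotypes.

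The ratio of means was larger in the second batch for most members. The batch 1 ratio used e1 birds only, while the batch 2 ratio averaged e1 and e2 birds. The log2 ratio had a median of 1.08 in batch 1, with a range of 0.76 to 2.82, and a median of 1.52 in batch 2, with a range of 0.83 to 3.27. It was larger in batch 2 for 44 members and in batch 1 for 9. The smaller of the 2 ratios was at least 2 in 5 members, lay between 1 and 2 in 24 and was under 1 in 24. Of the 11052 genes with at least 2 CPM in recessive red of each batch, 1.22% reached 0.75 in batch 1 and 2.12% in batch 2. The difference of the 2 ratios is made of the values that chose the members, so its test is given as a description. It was called in 0 members by edgeR's quasi-likelihood test of the interaction, where 0 of 13027 genes were called (0%), and 6 of the 53 had an unadjusted p under 0.05, against 6.97% of all genes. DESeq2 called 0 members and 5 genes (0.0329%) in the same comparison. Without recessive red bird 3 of batch 1, edgeR called 2 members. Of 13156 genes it then called 78 with a larger log2 ratio in batch 2 and 1 with a smaller one. With all birds the fitted difference had a median of 0.59 over the members. It was positive in 44 of them, against 53.2% of 13027 genes. Without recessive red bird 3 the median was 1.11, with 45 positive. Without wild-type bird 2 of batch 1 it was 0.10, with 34 positive, against 52.6% of 13016 genes. The size of the difference therefore depended on these birds.

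**Figure D2:**
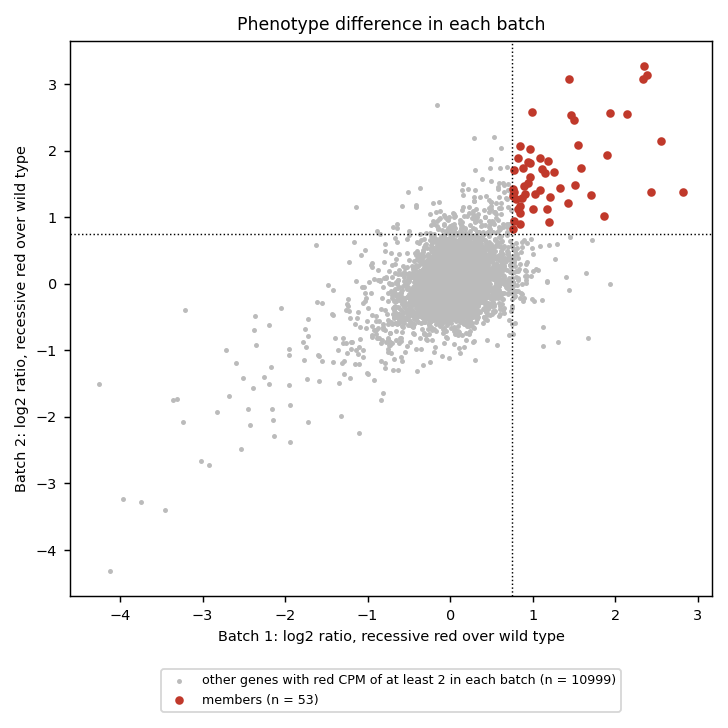
Each point is 1 gene with a mean of at least 2 CPM in recessive red of each batch, placed by its log2 ratio of recessive red to wild type in batch 1 (horizontal) and batch 2 (vertical). Dotted lines mark 0.75, and the 53 members in red fill the upper right corner by the way they were chosen.

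The members separated the birds less cleanly than their mean ratios. In 16 members every recessive red bird of batch 1 was above every wild-type bird of that batch, a separation found in 5.34% of the 11052 genes. In batch 2 this held for 24 members, against 1.86% of genes, and in 6 members for all 9 recessive red birds against all 9 homozygous wild-type birds, against 0.0543%. The same contrast chose the members, so these shares add nothing to the choice. For the same reason the calls of edgeR's quasi-likelihood test at an adjusted p under 0.05 are given as a description. In all birds 41 of 53 members were called higher (1.64% of 12839 genes), in batch 2 alone 36 of 53 (2.40% of 12459), and in batch 1 alone 1 of the 52 that passed the filter on low counts (0.00788% of 12693). DESeq2 called 46 members in all birds (2.62% of genes), 44 in batch 2 (3.79%) and 10 in batch 1 (0.180%). The authors' deposited table gave 46 of the 53 an adjusted p under 0.05 with a positive log2 fold change, and 1 no adjusted p. Those deposited results are also from DESeq2 on these birds, so they are not a separate check.

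Single birds of batch 1 stood apart from their group in these members. The level of the members in a bird was summarised as the median, over the 53, of log2(CPM + 0.5) minus the wild-type mean of the batch. Recessive red birds 1, 3 and 4 of batch 1 had medians of 0.88, 1.69 and 0.97. Wild-type birds 1, 2, 3 and 4 of that batch had 0.08, 0.75, -0.40 and -0.38. Recessive red bird 3 stood within the range of the recessive red birds of batch 2, 1.24 to 1.94, and wild-type bird 2 lay close to recessive red birds 1 and 4. Bird 3 was the highest recessive red bird of batch 1 in 39 of 53 members, against 35.6% of all 12839 tested genes. Wild-type bird 2 was the highest of its group in 40 members, against 19.2% of those genes. The rule used these same birds, and a mean over 3 recessive red birds favours members lifted by 1 of them. For wild-type bird 2 the rule works the other way, since a high wild-type bird lowers the ratio. Both counts come from values that the rule used and are a description. Recessive red bird 3 had the deepest library of the series, with 23168538 counts, and wild-type bird 2 the shallowest of batch 1, with 15090167. Over all genes with a mean of at least 1 CPM, the same median lay between -0.11 and 0.11 in every bird of the series. The part of depth in these differences was not tested.

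**Figure D3:**
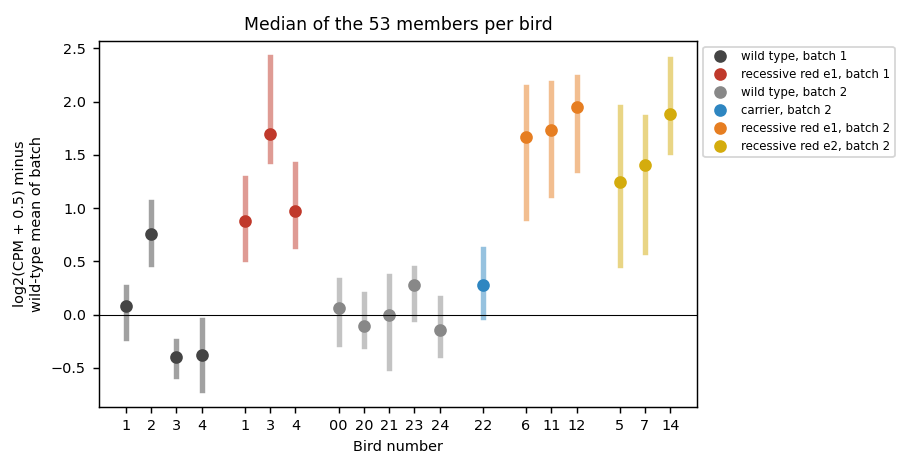
Points give the median over the 53 members of log2(CPM + 0.5) minus the wild-type mean of the batch, and bars the range from the 25th to the 75th percentile of members, for each bird. Recessive red bird 3 reaches 1.69 beside 0.88 and 0.97 in the other recessive red birds of batch 1, and wild-type bird 2 reaches 0.75.

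The membership of many transcripts rested on bird 3. Without it the rule gave 35 genes, of which 26 were among the 53, and the median log2 ratio of the 53 in batch 1 fell to 0.835. Then 28 of the 53 still reached 0.75 in that batch and 52 stayed above 0. Without wild-type bird 2 the rule gave 77 genes, 52 of them among the 53, and the median was 1.46. Without both birds it gave 57 genes, 40 of them among the 53, and the median was 1.15. Without recessive red bird 1 the rule gave 82 genes, of which 49 were among the 53, and without bird 4 it gave 73, of which 47 were.

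The member that led by the smaller ratio, A306_00000788, lost most of its batch 1 ratio without bird 3. A306_00007648, named here after its values were seen, turned direction without it, from 1.70 to -0.52. In batch 1 A306_00000788 stood at 75.7, 238, 55.1 and 24.5 CPM in wild-type birds 1, 2, 3 and 4, and at 112, 1323 and 109 CPM in recessive red birds 1, 3 and 4. In batch 2 it stood at 46.8, 27.0, 33.1, 94.8 and 32.0 CPM in wild-type birds 00, 20, 21, 23 and 24, at 707, 340 and 376 CPM in e1 birds 6, 11 and 12, and at 465, 266 and 336 CPM in e2 birds 5, 7 and 14. In batch 2 the lowest recessive red bird was above the highest wild-type bird, while in batch 1 wild-type bird 2 was above recessive red birds 1 and 4. The log2 ratio was 2.38 in batch 1 and 3.14 in batch 2. Without recessive red bird 3 the batch 1 value was 0.17, and without wild-type bird 2 as well it was 1.09. The carrier stood at 21.2 CPM, below all 5 wild-type birds of batch 2.

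A group of members was close to silent in wild type, and 6 of the 53 had a mean under 1 CPM in wild type of both batches. The rule set its minimum of 2 CPM in recessive red only, so these members passed through the phenotype where they were high. The share of all genes at such a wild-type level was not computed. A306_00008834 stood at 0.620, 1.13, 0.727 and 0.0480 CPM in the wild-type birds of batch 1 and at 2.17, 9.93 and 3.69 CPM in recessive red birds 1, 3 and 4. In batch 2 its wild-type birds lay between 0.112 and 0.537 CPM, its e1 birds 6, 11 and 12 at 8.92, 7.70 and 6.19 CPM, and its e2 birds 5, 7 and 14 at 9.95, 6.39 and 3.63 CPM. All 9 recessive red birds were above all 9 homozygous wild-type birds, and the log2 ratios were 2.35 and 3.27. The carrier was at 0.627 CPM from 10 counts, slightly above the wild-type birds of its batch and below each recessive red bird.

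A306_00007803 was 1 of the 2 members, with A306_00009751, whose ratios were closest between the batches among the 5 with a smaller ratio of at least 2. Its wild-type birds lay at 0.362, 0.795, 0.409 and 0.0961 CPM in batch 1 and between 0.0561 and 0.462 CPM in batch 2. Recessive red birds 1, 3 and 4 were at 3.25, 6.13 and 5.27 CPM, e1 birds 6, 11 and 12 at 2.37, 4.05 and 2.21 CPM, and e2 birds 5, 7 and 14 at 5.14, 2.18 and 1.19 CPM. Again no recessive red bird overlapped the wild-type range. The log2 ratios were 2.56 and 2.15, and the batch 1 value was 2.38 without recessive red bird 3 and 2.77 without wild-type bird 2. It was the 1 member called higher in batch 1 alone.

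A306_00009751 was listed at 0 counts in wild-type bird 3 of batch 1 and in wild-type birds 00 and 20 of batch 2, and no homozygous wild-type bird exceeded 0.398 CPM. Recessive red birds 1, 3 and 4 stood at 2.22, 3.63 and 1.26 CPM. In batch 2 the e1 birds 6, 11 and 12 stood at 1.85, 4.39 and 3.83 CPM and the e2 birds 5, 7 and 14 at 5.53, 1.05 and 1.19 CPM. The gap between the phenotypes held in both batches, with log2 ratios of 2.15 and 2.55, although the lowest recessive red bird rested on 16 counts. The carrier was at 0 counts.

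A306_00009048 also parted the phenotypes fully but varied widely among recessive red birds of batch 2. Birds 6 and 14 stood at 24.2 and 14.9 CPM, while birds 5, 7, 11 and 12 lay between 2.21 and 3.91 CPM. The high birds belong to different alleles, bird 6 to e1 and bird 14 to e2. Wild type lay between 0.144 and 1.86 CPM in batch 1 and between 0.269 and 1.01 CPM in batch 2, and recessive red of batch 1 at 3.25, 9.06 and 4.95 CPM in birds 1, 3 and 4. The log2 ratios were 2.34 and 3.08.

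A306_00004327 and A306_00005053 completed the 6 members with no overlap. A306_00004327 lay between 0.432 and 1.46 CPM in wild type of batch 1, between 0.201 and 1.06 CPM in homozygous wild type of batch 2, and at 2.93, 4.53 and 2.32 CPM in recessive red birds 1, 3 and 4. In batch 2 its lowest recessive red bird was bird 12, at 2.80 CPM, and its log2 ratio was 2.47. A306_00005053 had a small ratio in both batches, 0.77 and 0.94, and its lowest recessive red bird was less than 1 CPM above its highest wild-type bird, at 21.6 CPM. Its recessive red birds of batch 1 lay close together, with birds 1 and 3 at 28.1 and 27.8 CPM and bird 4 slightly lower. Without recessive red bird 3 its ratio in that batch was 0.748, just short of the threshold.

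**Figure D4:**
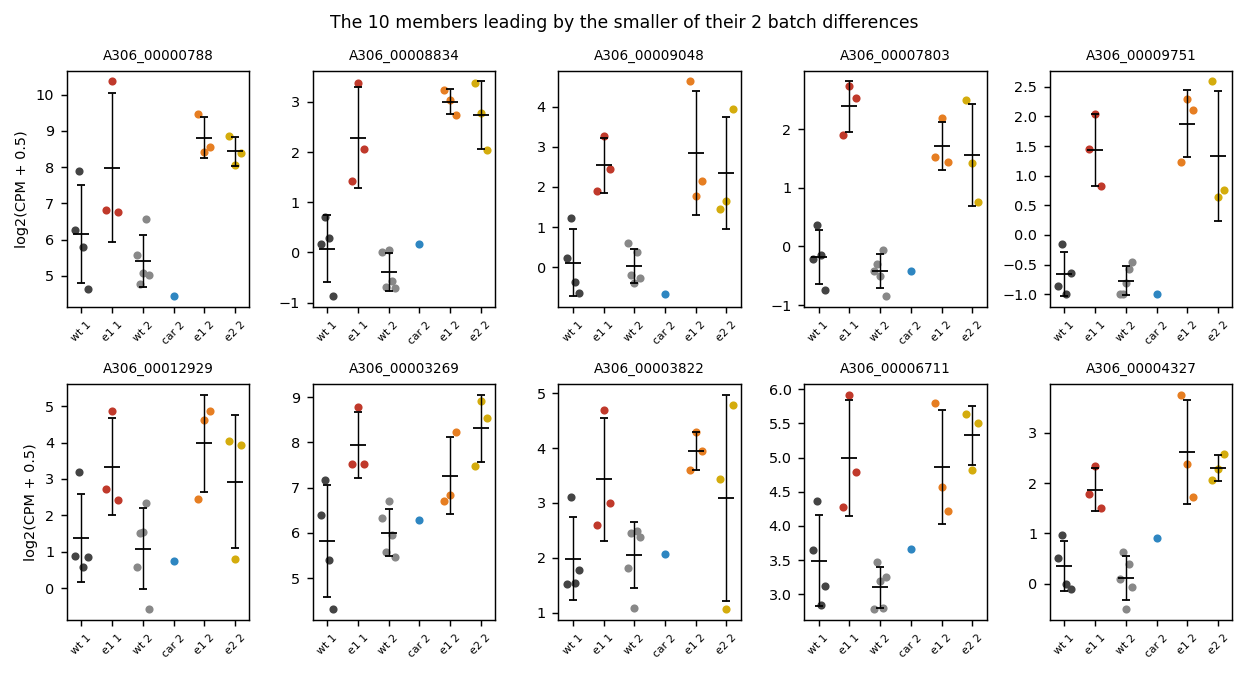
Each panel shows 1 of the 10 members that lead by the smaller of their 2 ratios, with log2(CPM + 0.5) on the vertical axis and a scale of its own. Points are birds, horizontal marks and bars the mean and SD of a group, and the groups are wild type (wt), e1, e2 and the carrier (car) of batch 1 or 2. In A306_00000788 a single recessive red bird of batch 1, at 1323 CPM, stands far above the other recessive red birds of that batch, while in A306_00007803 the 3 birds lie together.

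The other 4 of the 10 leading members, like A306_00000788, overlapped between the phenotypes when the batches were pooled. A306_00003269 was at 83.9, 144, 41.7 and 19.3 CPM in wild type of batch 1 and at 183, 442 and 185 CPM in recessive red. In batch 2 wild type ran from 43.6 to 103 CPM and recessive red from 104 CPM in bird 6 to 484 CPM in bird 7, so each batch parted the phenotypes on its own. A306_00006711 had log2 ratios of 1.55 and 2.08, and in batch 2 its lowest recessive red bird, at 18.1 CPM, was above its highest wild-type bird, at 10.6 CPM.

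A306_00012929 and A306_00003822 shared a low value in bird 7 of e2. A306_00012929 stood at 4.92, 24.3 and 28.6 CPM in e1 birds 6, 11 and 12 and at 15.9, 1.25 and 14.7 CPM in e2 birds 5, 7 and 14, beside a wild-type range of 0.168 to 4.57 CPM. A306_00003822 stood at 11.6, 19.3 and 15.0 CPM in the e1 birds and at 10.3, 1.58 and 27.0 CPM in the e2 birds, beside a wild-type range of 1.61 to 5.09 CPM. In e2 bird 7 the first lay within the wild-type range and the second just below it, and in both the other 5 recessive red birds lay above that range. In batch 1, wild-type bird 2 stood at 8.68 CPM for A306_00012929 and 8.08 CPM for A306_00003822, above recessive red birds 1 and 4.

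At the edge of the rule the choice was narrow. Just inside lay A306_00005755, with ratios of 0.756 and 1.32, and A306_00008916, with 0.758 and 0.83. Just outside lay A306_00012162, with 0.748 in batch 1 and 1.31 in batch 2, and A306_00003898, with 0.746 and 0.96. In batch 2 A306_00012162 stood at 8.52 ± 1.33 CPM in recessive red (SD, n = 6) and at 3.13 ± 0.336 CPM in the homozygous wild-type birds (SD, n = 5), without overlap. A306_00005755, inside, stood at 27.7 ± 24.8 CPM (SD, n = 6) and at 10.8 ± 4.44 CPM (SD, n = 5), with overlap.

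In batch 2 the rule did not use which allele a recessive red bird carried. In batch 1 all its recessive red birds were e1, so each member had to be raised in e1. That choice favours members higher in e1 than in e2, so the comparison of the alleles is a description. No member was called between e2 and e1 by edgeR's quasi-likelihood test, where 3 of 13269 genes (0.0226%) were called, and 11 of the 53 had an unadjusted p under 0.05, 4 higher and 7 lower in e2, against 6.03% of all genes. The log2 difference of e2 against e1 was negative in 37 of 53 members, with a median of -0.23, a lowest value of -2.89 and a highest of 2.02. Over all genes 50.3% were negative. The intervals were wide: the half-width of the 95% interval, not adjusted for the number of genes, had a median of 1.12 log2 units over the members and 0.50 over all genes. For 12 members that interval lay within 1 log2 unit of 0. The median level of the members was 1.78 ± 0.14 in e1 (SD, n = 3) and 1.51 ± 0.33 in e2 (SD, n = 3), with e2 bird 14 at 1.88 inside the e1 range of 1.67 to 1.94 and e2 birds 5 and 7 below it, at 1.24 and 1.41.

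The smallest unadjusted p between the alleles among the members was that of A306_00004954, named here after its values were seen. It stood at 15.6, 19.5 and 7.74 CPM in e1 birds 6, 11 and 12, at 1.93, 3.23 and 5.18 CPM in e2 birds 5, 7 and 14, and between 0.505 and 1.95 CPM in homozygous wild type. Each e2 bird was below each e1 bird, and e2 bird 5 was within the wild-type range. The log2 difference was -2.07 ± 0.47 (SE, edgeR's quasi-likelihood test, adjusted p = 0.503). DESeq2 called it at an adjusted p of 0.00813, the 1 member among its 27 called genes (0.179%), and over the other settings tried the adjusted p of edgeR lay between 0.338 and 0.811. The e1 birds of batch 1 stood at 4.82, 9.88 and 6.27 CPM beside wild type at 1.81, 5.10, 1.59 and 0.384 CPM.

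The carrier entered neither side of the rule. Its median over the members was 0.27, beside 0.02 ± 0.17 in the 5 homozygous wild-type birds (SD, range -0.15 to 0.28) and 1.24 to 1.94 in the 6 recessive red birds of its batch. On a line from the wild-type mean (0) to the recessive red mean (1) of each member, the carrier had a median place of 0.17. It was above the wild-type mean in 39 of 53 members, against 58.4% of 13269 genes, and above all 5 wild-type birds in 15 members, or 28.3%, against 13.3% of those genes. It was below all 5 in 4 members, or 7.55%, against 8.28% of those genes. In 32 members it was below the lowest recessive red bird, against 1091 of the 13269 genes, a count favoured by choosing members high in recessive red. Wild-type bird 23, at a median of 0.28, was as high as the carrier and stood above the other 4 wild-type birds in 22 members, against 17.0% of genes. Birds 00, 20, 21 and 24 did so in 9, 6, 11 and 5 members, against 18.9%, 13.9%, 31.6% and 18.5% of genes. Bird 23 is itself in the mean of the 5 wild-type birds, which draws its median toward 0, while the carrier is not. The members were chosen for a low mean in these 5 birds, a choice that favours a higher place for a bird it did not use. A single carrier allows no test.

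Levels were also set side by side between the years. The rule set no limit on a difference between years, but it used these same birds and values in each batch, so the calls among members are a description. Between homozygous wild-type birds of 2020 and 2017, edgeR's quasi-likelihood test called 3 of 53 members, 1 higher and 2 lower in 2020, while 3419 of 13420 genes (25.5%) were called. Between e1 recessive red birds of the same years it called 1 of 53, higher in 2020, while 949 of the 13420 genes (7.07%) were called. The half-width of the 95% interval had a median of 1.01 log2 units for the members in wild type and 1.17 in e1, against 0.39 and 0.47 over all genes. A member therefore needed a larger difference than most genes to be called. The median log2 difference of the members was -0.47 in wild type, where 36 of 53 were lower in 2020, and 0.35 in e1, where 14 of 53 were lower. Without wild-type bird 2 of batch 1 the wild-type median was 0.04, with 27 of 53 members higher in 2020, so its direction rested on that bird. Then 2 members were called, while 2271 of 13422 genes were called. In e1, leaving out bird 3 of 2017 gave a median of 0.91 and 3 called members, while 573 of 13409 genes were called. Leaving out bird 1 of that year gave 0.13 and 1 called member, while 414 of 13409 genes were called. When bird 4 was dropped the median was 0.11 and 0 members were called, while 226 of 13405 genes were called. DESeq2 called 7 members in wild type (25.6% of genes) and 2 in e1 (10.1%).

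The member called in both, A306_00008124, rose from 2017 to 2020 in each phenotype. In wild type it stood at 56.3, 90.3, 43.4 and 36.7 CPM in birds 1, 2, 3 and 4 of 2017 and at 138, 106, 114, 108 and 72.2 CPM in birds 00, 20, 21, 23 and 24 of 2020. In e1 it stood at 112, 186 and 90.9 CPM in 2017 and at 429, 337 and 408 CPM in birds 6, 11 and 12. The wild-type years overlapped only through birds 2 and 24, and the e1 years did not overlap. The log2 difference was 0.75 ± 0.26 in wild type (SE, edgeR's quasi-likelihood test, adjusted p = 0.0397) and 1.51 ± 0.31 in e1 (SE, edgeR, adjusted p = 0.00971). The wild-type call was lost without any 1 of wild-type birds 20, 21, 23, 00, 1, 3 and 4, and the e1 call without recessive red bird 4 (adjusted p = 0.0570). Its carrier value of 92.3 CPM lay within the wild-type range, and the e2 birds stood at 357, 363 and 428 CPM.

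The members lower in wild type of 2020 were A306_00005156 and A306_00012663, and both calls were lost without wild-type bird 2. A306_00005156 stood at 73.8, 159, 77.5 and 68.8 CPM in 2017 and between 54.6 and 80.8 CPM in 2020, and its difference of -0.70 ± 0.23 on the log2 scale (SE, edgeR, adjusted p = 0.0342) became -0.29 without bird 2 (adjusted p = 0.239). A306_00012663 stood at 28.8, 45.7, 8.77 and 14.6 CPM in 2017 and between 9.88 and 16.6 CPM in 2020. Its log2 difference of -0.99 ± 0.35 (SE, edgeR, adjusted p = 0.0439) became -0.45 without bird 2 (adjusted p = 0.313). Leaving out wild-type birds 20, 21 or 24 of 2020 also ended each call, and for A306_00012663 so did leaving out birds 23, 00 or 1, with adjusted p-values from 0.0575 to 0.0960. In recessive red e1 neither was called, with log2 differences of -0.01 (adjusted p = 0.992) and 0.13 (adjusted p = 0.878).

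The members had a larger median spread among birds of a group than the genes of their count range. The SD of log2(CPM + 0.5) had a median over the 53 members of 0.80 in recessive red of batch 2 and 0.47 in wild type of batch 2, and of 0.70 and 0.64 in batch 1. Over the 11119 genes with a mean CPM in the range of the members the medians were 0.29, 0.20, 0.18 and 0.22 in the same order. These genes include the members and were not matched to them by level within that range. The spread comes from the same birds and values that chose the members. A ratio of means can favour transcripts lifted by 1 recessive red bird, while in wild type a high bird lowers the ratio. The larger spread is a description in both phenotypes. The members with the widest spread among the 6 recessive red birds of batch 2 were A306_00007879, A306_00001786 and A306_00012929. A306_00007879 ran from 0.0553 CPM in e2 bird 5 to 13.1 CPM in e1 bird 12, and from 0 to 7.44 CPM in homozygous wild type, with 8.96 CPM in the carrier. A306_00001786 ran from 5.69 CPM in bird 5 to 138 CPM in bird 7, and from 1.41 CPM in wild-type bird 21 to 31.0 CPM in bird 24. In these 2 members the phenotypes overlapped in both batches, and neither was called in all birds (edgeR, adjusted p = 0.411 and 0.269).

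Deviations from the group mean went the same way in most pairs of members. Over 18 birds, with each batch and phenotype centred and the carrier left out, the 1378 pairs of members had a median Pearson r of 0.27, and 76.6% of pairs were positive. An r of at least 0.5 was found in 313 pairs and one of -0.5 or below in 24. The points share library and depth, and birds 3 of recessive red and 2 of wild type lie far out in many members, so these values describe the birds at hand. No such values were computed for pairs of other genes, so sharing among members cannot be told from sharing among all transcripts. Choosing by a ratio of means also favours transcripts lifted by the same recessive red bird. The closest pair, singled out after its values were seen, was A306_00003821 with A306_00003822, at an r of 0.978. Their identifiers are consecutive, and whether reads could be split between near-identical copies is not given in the sources used here. A306_00003821 ran in parallel with its partner, at 13.1, 19.4 and 20.4 CPM in e1 birds 6, 11 and 12 and at 10.7, 2.18 and 29.8 CPM in e2 birds 5, 7 and 14.

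The leading members had different nearest partners. A306_00000788 was closest to A306_00008124 (r = 0.795) and had an r of at least 0.5 with 24 other members. A306_00008834 was closest to A306_00000788 (r = 0.751), A306_00007803 to A306_00008834 (r = 0.719), and A306_00009048 to A306_00005224 (r = 0.889). Of the 10 leading members, A306_00007803 and A306_00009751 had the fewest such partners, with an r of at least 0.5 in 4 and 5 other members.

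Grouping the members by these deviations, with average linkage at an r of 0.5, gave 4 groups of at least 5 members that held 31 of the 53, and 22 members lay outside them. The grouping was chosen after the values were seen and is not tested. All 4 groups were high in recessive red bird 3, with medians of 1.70, 1.79, 2.00 and 1.68 in groups A, B, C and D, and all stood above the wild-type mean in wild-type bird 2, at 1.06, 0.93, 0.84 and 0.83. Within recessive red of batch 2 the groups had different profiles. The grouping used the deviations of these same birds, so these profiles, by bird or by allele, only describe it. Group A, 9 members that include A306_00012929, A306_00003821 and A306_00003822, had a median of -0.27 in e2 bird 7 and of 2.48 and 2.56 in birds 12 and 14, and in bird 7 a single member of the 9 was above all 5 wild-type birds.

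Group B, 9 members that include A306_00003269 and A306_00008124, was the most even, between 1.47 in bird 5 and 1.98 in bird 14. In 5 of the 6 recessive red birds of batch 2 all 9 of its members were above all 5 wild-type birds, and in bird 7 it was 8. Group C, 8 members that include A306_00000788, A306_00009048, A306_00006711 and A306_00004327, peaked in e1 bird 6 at 2.77 and e2 bird 14 at 2.44. All 8 were above all 5 wild-type birds in each of the 6 birds, a separation found in 1.86% of 11052 genes. For single birds no share over all genes was computed. Such counts come from the batch 2 values that chose the members, so they add nothing to the choice. Group D, 5 members that include A306_00004954 and A306_00005156, was high in the e1 birds, at 1.57, 2.43 and 2.06 in birds 6, 11 and 12, and lower in e2 birds 5 and 7, at 0.58 and 0.59, with bird 14 at 1.59. In batch 1, recessive red birds 1 and 4 stood at 1.26 and 1.32 in group D and between 0.61 and 0.77 in the other groups.

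**Figure D5:**
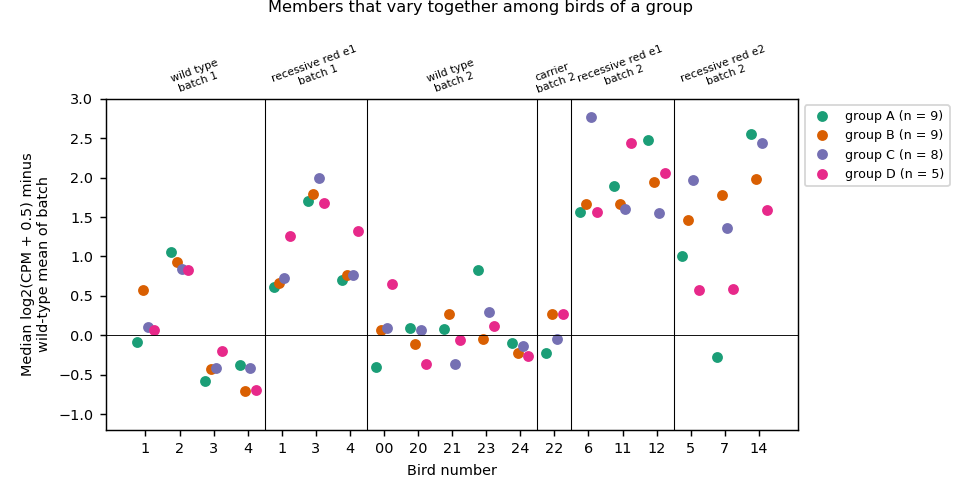
Points give, for each bird, the median over the members of groups A, B, C and D of log2(CPM + 0.5) minus the wild-type mean of the batch. The groups lie close together in recessive red bird 3 of batch 1, between 1.68 and 2.00, and spread from -0.27 to 1.78 in e2 bird 7.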

How the data were processed

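Collar RNA of 19 pigeons was analysed from 1 table. The authors deposited raw counts per gene, 1 column per bird, per the file headers, and beside them DESeq2 results: mean normalized signal, log2 fold changes with standard errors, test scores, and p-values. The submitters' processing notes name DESeq2 with no version. Aligner, counter and strandedness: not given in the sources used here. Members and lists were chosen with earlier results of these data known.

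CPM used the sum of each column. Tests across genes used edgeR 4.0.16 in R 4.3.3 (filterByExpr, TMM scaling, quasi-likelihood F test, Benjamini-Hochberg adjustment, threshold 0.05). Phenotypes were fitted with batch as a term and the carrier as wild type, alleles within batch 2 with a coefficient per genotype, and years with a coefficient per group over all birds. Standard errors are the size of the log2 fold change over the square root of F. Tests were tried on simulated counts. DESeq2 1.42.0, other scalings and filters, other limits of the rule and leaving out each bird were alternatives.

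Named are the 10 members leading by the smaller ratio, those with no overlap between phenotypes, those nearest the threshold, those called between alleles or years, and the 3 with the widest spread in recessive red of batch 2. Total counts were 13559606 to 23168538 per bird, and the file gives a count behind each CPM. With no gene names (0 of 15392 identifiers matched), no function, marker or sequence is given.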

Additional observations from a re-analysis of the deposited data

Results flagged for a closer look

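Groups of 4, 5 or 6 birds were checked 69 times for a bird far from the rest, over the 20 named members, the total count, the share of counts in the members and the median level of the members. This found 4 values. Chance gives such a gap in about 1 in 20 groups, and the members are not independent of each other. In wild type of batch 1, bird 2 stood at 8.68 CPM for A306_00012929, where the others lay between 0.999 and 1.34 CPM. The same bird stood at 8.08 CPM for A306_00003822, where the others lay between 2.38 and 2.93 CPM, and at 159 CPM for A306_00005156, where the others lay between 68.8 and 77.5 CPM. In recessive red of batch 2, e2 bird 7 stood at 1.58 CPM for A306_00003822, where the other 5 birds lay between 10.3 and 27.0 CPM. The 3 recessive red birds of batch 1 are too few for this check.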

How the results depend on the processing

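The rule gave 133 members at a threshold of 0.5 and 29 at 1, and 44 of the 53 with TMM-scaled library sizes. With the median CPM of each group in place of the mean it gave 49 genes, of which 31 were among the 53. Leaving out birds gave 35 to 82 members. The calls of members higher in recessive red were 41 in all birds and 34 to 45 with birds left out, while 131 to 371 genes were called higher with birds left out. With the replicate block (the bird number as a block) 3 were called, and these were the only 3 genes called higher of 13420. The numbers pair only birds of batch 1, whose deviations correlated at -0.18, -0.07 and -0.12 for numbers 1, 3 and 4. No such values were computed for birds of unlike number, so whether paired birds share more than a number cannot be told. The block leaves few degrees of freedom. In batch 1 alone DESeq2 called 10 members and 27 genes higher, and leaving out birds gave 0 to 5 members, while 0 to 11 genes were called higher. DESeq2 called 1 member between the alleles, 7 between years in wild type and 2 in e1. The wild-type years alone gave 5, and leaving out birds gave 1 to 5 in wild type and 0 to 3 in e1. Over all settings tried, 2271 to 3987 genes were called between years in wild type and 196 to 1529 in e1. The interaction gave 0 to 2, the 2 without recessive red bird 3 being A306_00005286 and A306_00007005. In that setting 78 genes were called with a larger ratio in batch 2 and 1 with a smaller one, of 13156. The median of the carrier was 0.23 with TMM scaling and 0.22 with a pseudocount of 1. Of 434 values of single members under other settings, 49 lost their call, 2 gained one and 0 changed direction. Most of these values belong to the phenotype contrast that chose the members, so the choice itself favoured an unchanged direction. A306_00007648, which turned direction in batch 1 without recessive red bird 3, is not among them. The causes were not tested. Members with few counts in wild type are limited by depth.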
